A study of Rattus norvegicus with 56 samples.

Results

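The arrays described here are those that received labelled RNA of exactly 2 rats each, chosen by the rats named in the array titles. They number 12 of the 56 arrays of the study, 6 made from rats given what the labels call RXR treatment and 6 made from control rats. All rats were females of the inbred Wistar Furth strain, the tissue was the mammary gland, and targets were combined in equal amounts after labelling, so that each array averages 2 glands. The sources used here do not name the compound, its dose, the length of treatment or the rats' ages. By oestrous stage the groups were not alike: treated pools 1 to 3 held no rat in diestrus and treated pools 4 to 6 held 2 each, while control pools 2, 3 and 5 held 2 and control pools 1, 4 and 6 held 1. The pools contain rats that also have arrays of their own, so they are not independent of those arrays.

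Retinoid X receptors are nuclear receptors that bind DNA in pairs, either with each other or with a partner such as a peroxisome proliferator-activated receptor, a liver X receptor, a retinoic acid receptor, the thyroid hormone receptors or the vitamin D receptor. With some partners a ligand of the retinoid X receptor alone can switch the pair on, so that one compound may reach genes of lipid, glucose and retinoid metabolism. The mammary gland of a rat that is not pregnant is a fat pad crossed by epithelial ducts, in which luminal cells line the lumen and contractile basal cells surround them. Its RNA therefore comes from adipocytes, both epithelial layers, stroma, vessels and blood cells, and fewer cells of a type and less RNA per cell cannot be told apart in such bulk samples.

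Values are deposited log2 intensities, with their scale inferred from their range, and the array medians lay between 7.41 and 7.45. A gene was represented by its brightest probe set and is said to have risen or fallen where its adjusted p was under 0.05 (limma, all 15866 probe sets adjusted together). On the first principal component, which held 35% of the variance, every treated pool lay on one side of 0 and every control pool on the other. The technical scores, positions on an axis along which repeat arrays of the same RNA differ, ran from -15 to -0.277 in treated and from -13.8 to 0.366 in control pools. The pools of rats 2 and 3 had the lowest correlation with their own member rats, r = 0.289 in the treated and r = 0.234 in the control group, and results are given without both where that matters. Markers of the labelled tissue were present: the keratins Krt8 of luminal and Krt14 of basal cells had pool medians of 10.91 and 10.46 in treated, and 11.34 and 10.62 in control glands.

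Of the probe sets, 1400 passed (8.82%), with 817 higher (5.15%) and 583 lower (3.67%) in treated glands. Of 10411 genes, 1034 passed (9.93%), with 628 higher (6.03%) and 406 lower (3.9%) in treated glands. Those shares of genes higher and lower are the background for the count of every list and family below. All 6 treated pools lay above all 6 control pools for 343 genes (3.29%) and below them for 201 (1.93%). The median difference over all genes was -0.005 log2, that of the genes that rose was 0.4 and that of those that fell was -0.29. Among genes outside fatty acid and triglyceride synthesis, 24 rose by more than 1 log2, which is 2-fold, and 4 fell by as much. When the pools with both rats in diestrus were compared, 3 against 3, each of the 1034 genes kept its direction. These pools are part of the 12 in which the genes were called, which favours that outcome, and only 11 probe sets passed among them. Without both pools of rats 2 and 3, 476 genes were higher (4.57%) and 293 lower (2.81%).

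Among the 12 largest rises outside lipid synthesis were genes that handle glucose, glycogen and pyruvate, beside others with no tie to these. Values of a gene in a group are given below as its lowest, median and highest pool. Gys2, a glycogen synthase known mainly from liver, stood at 7.39, 7.88 and 8.98 log2 in treated pools, against 6.09, 6.28 and 6.73 in control pools. The groups did not overlap, although the treated pools spread widely, with pools 1 and 4 far above the other 4. The difference was 1.75 ± 0.24 log2 (SE), or 3.36-fold (adjusted p = 0.000607). Pygl, the liver type of glycogen phosphorylase, had 9.74, 10.42 and 10.73 log2 in treated, against 8.92, 8.98 and 9.25 in control pools, and rose 2.5-fold. Its highest control pool was separated from the other control pools by a wide gap but still lay below every treated pool. The rise of Slc2a4, through which insulin drives glucose uptake in fat, was 1.76 ± 0.20 log2, and 1.29 log2 by its other probe set. Car5b, a mitochondrial carbonic anhydrase that supplies bicarbonate to carboxylases, had 9.81, 10.43 and 10.90 log2 in treated and 8.84, 8.95 and 9.25 log2 in control pools. It rose 2.72-fold, and every treated pool exceeded every control pool.

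Several of the 12 largest rises had no tie to a metabolic list. Myl4, a myosin light chain of atrial and embryonic muscle, had 6.54, 7.06 and 7.32 log2 in treated pools and 5.43, 5.52 and 5.75 log2 in control pools. The groups were far apart, and the rise of 1.43 ± 0.11 log2 had an adjusted p of 9.65e-06. None of the 20 smooth and skeletal muscle genes measured passed, so Myl4 did not move with a muscle list. That list was dim, with a mean of 6.04 to 6.12 log2 in treated pools, so absent calls say little there. Usp12, a ubiquitin-specific protease, rose by 1.38 ± 0.18 log2. Among 33 genes of that family 1 was higher and 1 lower (3.03% each), against 6.03% and 3.9% of all genes. Rgs7, a regulator of G-protein signalling, rose by 1.28 ± 0.17 log2, with 7.87, 8.56 and 8.95 log2 in treated and 6.84, 7.24 and 7.47 log2 in control pools. C8h11orf54, named for a human open reading frame, rose by 1.51 ± 0.18 log2. In each of these genes all treated pools lay above all control pools.

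**Figure D1:**
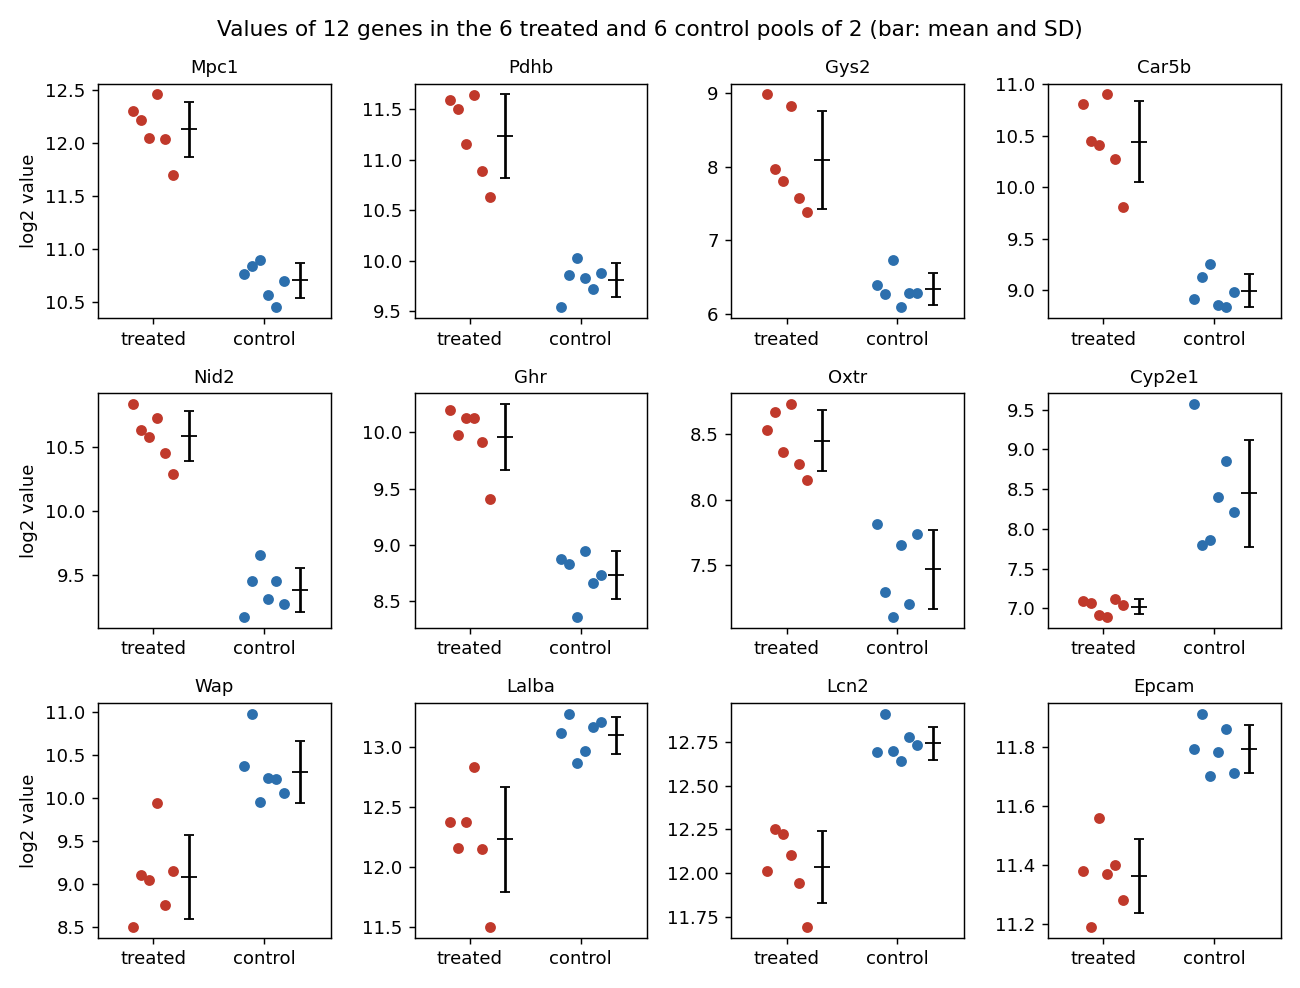
Values of 12 genes in each pool of 2. The vertical axis is the deposited log2 value, points are pools (red treated, blue control) and black bars are the mean and SD over 6 pools. The 12 genes were picked among those that passed, and treated and control pools do not overlap in any panel. Over all genes, 3.29% had every treated pool above every control pool and 1.93% had every treated pool below.

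The gene that fell furthest outside lipid synthesis was Cyp2e1. A cytochrome P450 that oxidises ethanol and small organic molecules, it stood at 6.89, 7.06 and 7.12 log2 in treated pools, against 7.80, 8.30 and 9.57 in control pools. Treated pools were uniformly low while control pools varied, and the groups did not overlap. It fell by 1.43 ± 0.23 log2, 2.69-fold lower (adjusted p = 0.00184). Of 53 cytochromes P450 measured, 1 was higher and 1, Cyp2e1 itself, lower (1.89% each), against 6.03% and 3.9% of all genes. Rprm, which encodes the cell cycle inhibitor reprimo, fell by 0.93 ± 0.15 log2. Its values were 7.24, 7.42 and 8.04 log2 in treated and 8.25, 8.54 and 8.75 log2 in control pools, again without overlap. Ace, angiotensin-converting enzyme, fell by 0.72 ± 0.16 log2 with overlapping groups, and its other probe set gave -0.46. LOC102552398, which has no informative name, fell by 1.26 ± 0.22 log2. The remaining falls among the 12 largest were in Wap, Lalba, Gp2, Reg3b, Cpt1a, Cfd, Cd14 and Lcn2, described with their groups.

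The entry of pyruvate into mitochondria was the function with the largest median change after lipid synthesis among the lists described here. Of 15 genes of pyruvate entry measured, 10 rose and 0 fell, and their median difference was 0.75 log2. Mpc1, one of both subunits of the mitochondrial pyruvate carrier, had 11.70, 12.14 and 12.46 log2 in treated pools and 10.45, 10.73 and 10.90 log2 in control pools. The lowest treated pool stood well above the highest control pool, and the rise was 2.69-fold (1.42 ± 0.11 log2, adjusted p = 9.65e-06). Its partner subunit Mpc2 rose by 1.16 ± 0.13 log2, with 10.18, 10.82 and 11.07 log2 in treated and 9.38, 9.56 and 9.69 log2 in control pools.

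The 4 genes of the pyruvate dehydrogenase complex in that list all rose. Pdhb, the beta subunit of its first enzyme, stood at 10.63, 11.32 and 11.64 log2 in treated pools, against 9.54, 9.84 and 10.03 in control pools, and rose by 1.42 ± 0.16 log2. Pdhx, the protein that anchors the third enzyme, rose by 1.47 ± 0.17 log2. Pdha1, the alpha subunit, rose by 0.98 ± 0.12 log2 and Dld, the third enzyme itself, by 0.75 ± 0.09 log2. For these 4 genes treated and control pools did not overlap. Pdk1, a kinase that inactivates the complex, rose as well, with 8.69, 9.28 and 9.85 log2 in treated and 7.74, 7.94 and 8.10 log2 in control pools. Its rise was 1.38 ± 0.16 log2 by the brighter probe set and 0.853 by the other. Pc, pyruvate carboxylase, which makes oxaloacetate from pyruvate, rose by 0.96 ± 0.15 log2, and the lactate dehydrogenase genes Ldhb and Ldha by 0.65 ± 0.10 and 0.34 ± 0.08 log2.

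The promoters of Pdhb and Mpc1 are shown because these genes of one pathway rose by nearly equal amounts and differ in the hormone receptor half-site searched for. Sequences are from RefSeq on the rat assembly GRCr8, run from 250 bases before to 50 after the annotated start, and are read on the strand of the gene. The half-site AGGTCA is the core letters that retinoid X receptors and many partners recognise, searched on both strands, and capitals mark it. The Pdhb promoter (chr15:19182539-19182838, plus strand) held 1 match, starting 4 bases before the annotated start.
Pdhb: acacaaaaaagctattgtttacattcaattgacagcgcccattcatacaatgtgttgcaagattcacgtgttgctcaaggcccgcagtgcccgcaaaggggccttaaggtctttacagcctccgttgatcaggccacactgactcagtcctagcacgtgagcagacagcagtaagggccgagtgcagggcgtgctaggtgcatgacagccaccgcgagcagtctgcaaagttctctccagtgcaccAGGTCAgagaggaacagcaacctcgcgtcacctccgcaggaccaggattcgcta
The Mpc1 promoter (chr1:54996909-54997208, minus strand) held 0 matches of any motif searched.
Mpc1: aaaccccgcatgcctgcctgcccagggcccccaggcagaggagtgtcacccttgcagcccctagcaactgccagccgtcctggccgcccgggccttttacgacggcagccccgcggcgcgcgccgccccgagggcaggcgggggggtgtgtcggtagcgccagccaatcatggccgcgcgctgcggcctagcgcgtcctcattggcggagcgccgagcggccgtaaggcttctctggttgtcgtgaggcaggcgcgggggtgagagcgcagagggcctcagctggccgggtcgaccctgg
Among the 29 genes of pyruvate entry and the tricarboxylic acid cycle with a promoter in the table, 6 held the half-site (20.7%), against 15.7% of all promoters of that length and 12.8% of those of measured genes. A direct repeat of that half-site spaced by 1 base, with both exact, was found in 0 of the 29 and in 0.0583% of all promoters. A match is a run of letters and not a shown binding site.

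The tricarboxylic acid cycle, which oxidises the acetyl group that pyruvate dehydrogenase makes, followed with 15 of 18 genes higher and 0 lower. The median was 0.44 log2. Cs, citrate synthase, the enzyme of its first step, had 10.78, 11.04 and 11.39 log2 in treated and 10.26, 10.36 and 10.45 log2 in control pools. Treated and control pools were separate, and Cs rose by 0.73 ± 0.09 log2 with other probe sets at 0.715 and 0.533. Idh3g and Idh3b, subunits of the NAD-dependent isocitrate dehydrogenase, rose by 0.52 ± 0.07 and 0.50 ± 0.08 log2. Suclg1 and Sucla2 of succinyl-CoA ligase rose by 0.53 ± 0.08 and 0.37 ± 0.06 log2, and Ogdh of the 2-oxoglutarate dehydrogenase complex by 0.44 ± 0.06 log2. The mean of the list over its genes was 10.13 to 10.46 log2 in treated and 9.8 to 9.99 log2 in control pools, so no pool crossed over. Among pools with both rats in diestrus the medians were 0.70 log2 for pyruvate entry and 0.37 log2 for the tricarboxylic acid cycle.

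Genes for subunits of the respiratory chain rose in all 5 complexes. Of 35 measured genes of complex I, the NADH dehydrogenase, 27 were higher and 0 lower, with a median of 0.34 log2 and 0.23 log2 among the diestrus pools. All 4 genes of complex II and all 8 measured genes of the list for complex III and cytochrome c were higher, with medians of 0.48 and 0.46 log2. Complex IV, cytochrome oxidase, had 8 of 19 higher and a median of 0.18 log2, and ATP synthase 9 of 16 with 0.28 log2. None of these lists held a gene that fell. The counts of complex I, complex IV and ATP synthase leaned on single libraries. That of complex I was 18 without treated pool 4 or control pool 1 or 2, and 20 without both pools of rats 2 and 3. For complex IV and ATP synthase the counts were 5 and 4 without control pool 1 or 5, and that of ATP synthase was 5 without control pool 6. Subunits that the mitochondrial genome encodes were not in these lists.

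Individual subunits differed in size of change. Ndufc1, an accessory subunit of complex I, had 10.24, 10.52 and 10.64 log2 in treated and 9.70, 9.83 and 9.99 log2 in control pools and rose by 0.66 ± 0.07 log2 (adjusted p = 0.000113). Ndufs1, the largest core subunit, rose by 0.77 ± 0.13 log2, and Ndufs3, another core subunit, by 0.57 ± 0.08 log2. In both, treated pools lay above every control pool. Sdha, the flavin subunit of complex II, stood at 10.48, 10.64 and 11.05 log2 in treated pools, against 10.14, 10.18 and 10.32 in control pools. Sdha rose by 0.52 ± 0.09 log2, and Sdhb, its iron-sulphur partner, by 0.44 ± 0.07 log2. Uqcrq, a small subunit of complex III, had 10.65, 10.91 and 11 log2 in treated and 10.17, 10.26 and 10.52 log2 in control pools and rose by 0.56 ± 0.08 log2. Cyc1, cytochrome c1, and Uqcrfs1, the Rieske iron-sulphur protein, rose by 0.57 ± 0.09 and 0.52 ± 0.08 log2. Cox6c of complex IV rose by 0.36 ± 0.05 log2 and Atp5f1b, the catalytic beta subunit of ATP synthase, by 0.32 ± 0.05 log2. Uqcrh, at 0.21 ± 0.06 log2, was the smallest change among the complex III genes, its groups overlapped, and it did not pass without treated pool 1, 2, 3, 4 or 5 or control pool 1, 2, 3, 5 or 6.

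The promoters of Uqcrq and Ndufa11 are shown as respiratory genes that rose and that hold motifs of factors known to act on nuclear genes of mitochondria. Capitals mark the half-site AGGTCA, the ETS motif CCGGAAGT and the core GCGCATGCG of nuclear respiratory factor 1, each searched on both strands. The Uqcrq promoter (chr10:38089929-38090228 of GRCr8, minus strand) held the half-site starting 144 and 124 bases before the start and the ETS motif 22 bases before it.
Uqcrq: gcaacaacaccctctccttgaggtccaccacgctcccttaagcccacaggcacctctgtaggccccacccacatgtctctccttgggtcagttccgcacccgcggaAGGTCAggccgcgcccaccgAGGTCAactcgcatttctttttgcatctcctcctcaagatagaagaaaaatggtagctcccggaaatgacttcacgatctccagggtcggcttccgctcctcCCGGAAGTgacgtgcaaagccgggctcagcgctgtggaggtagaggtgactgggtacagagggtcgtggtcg
The Ndufa11 promoter (chr9:1637364-1637663 of GRCr8, plus strand) held the core of nuclear respiratory factor 1 in a run of overlapping matches on both strands that begins 97 bases before the start. Ndufa11, an accessory subunit of complex I, rose by 0.52 ± 0.09 log2.
Ndufa11: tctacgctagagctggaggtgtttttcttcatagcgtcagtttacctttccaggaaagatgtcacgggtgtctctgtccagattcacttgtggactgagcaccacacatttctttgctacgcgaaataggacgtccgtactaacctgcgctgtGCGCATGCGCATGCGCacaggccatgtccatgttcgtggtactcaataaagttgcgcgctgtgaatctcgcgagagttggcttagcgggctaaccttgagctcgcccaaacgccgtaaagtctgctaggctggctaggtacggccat
Of 74 respiratory chain genes with a promoter in the table, 22 held the half-site (29.7%), against 12.8% of measured genes and 15.7% of all promoters. The ETS motif was in 11 (14.9%), against 7.09% of measured genes and 4.01% of all, and the core of nuclear respiratory factor 1 in 5 (6.76%), against 2.9% and 1.66%. Among the genes that rose the half-site was in 15% and among those that fell in 11.6%. The ETS motif was in 5.79% of those that rose and 4.78% of those that fell, both below the 7.09% of measured genes. For the core of nuclear respiratory factor 1 these shares were 3.74% and 1.79%, against 2.9% of measured genes.

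**Figure D2:**
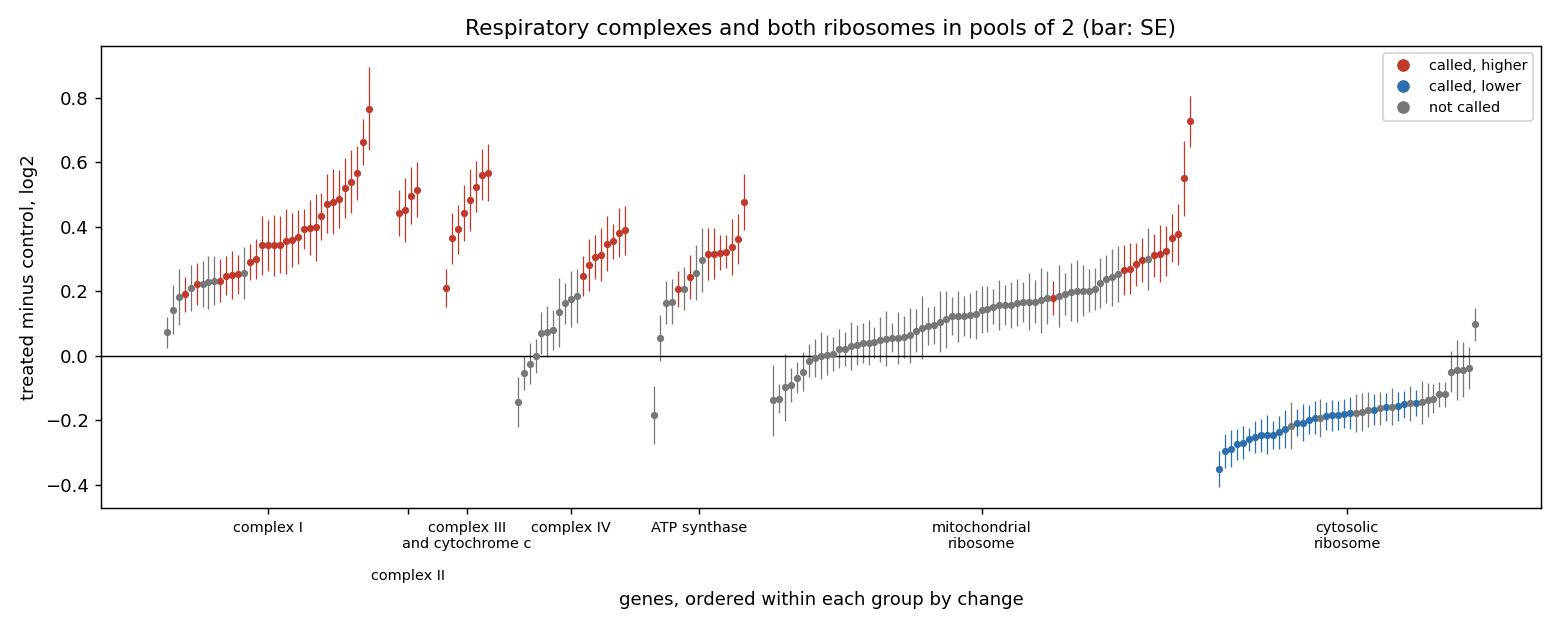
Treated minus control difference (log2, vertical axis) of each measured gene of the respiratory complexes, the mitochondrial ribosome and the cytosolic ribosome, ordered by size within each group. Points are genes, bars are the SE, red marks genes that rose and blue genes that fell; respiratory genes lie mostly above 0 and cytosolic ribosomal genes mostly below it.

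Assembly and supply of mitochondria were touched unevenly. Of 71 genes of the mitochondrial ribosome, 12 rose (16.9%, against 6.03% of all genes) and 0 fell, with a median of 0.14 log2. The number higher was 7 without treated pool 1 or 2, or control pool 1 or 5. Mrps7, a protein of its small subunit, had 9.83, 10.10 and 10.38 log2 in treated and 9.31, 9.40 and 9.47 log2 in control pools. Its rise of 0.73 ± 0.08 log2 was the largest among the 12 that rose, with the groups apart. Slc25 carriers, which move metabolites across the inner membrane, had 10 of 30 higher. They were led by the dicarboxylate carrier Slc25a10 (1.09 ± 0.17 log2) and the citrate carrier Slc25a1 (0.96 ± 0.14 log2), and Slc25a3, which imports phosphate, rose by 0.24 ± 0.05 log2. Among 16 mitochondrial chaperones and proteases, both subunits of the presequence peptidase rose, Pmpca (0.32 ± 0.05 log2) and Pmpcb (0.34 ± 0.07 log2). In that list 4 were higher (25%). That number was 2 without treated pool 4 or control pool 1, 5 or 6, and 7 without control pool 3.

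Genes that build iron-sulphur clusters and coenzyme Q were looked at after their values had been seen. For iron-sulphur cluster and lipoate assembly 6 of 9 were higher. Iscu, the scaffold on which clusters form, rose by 0.54 ± 0.08 log2 and Bola3, which helps to deliver them, by 0.54 ± 0.12 log2. For coenzyme Q 5 of 11 were higher and 1 lower. Coq5, a methyltransferase of its synthesis, had 7.77, 7.97 and 8.32 log2 in treated and 7.20, 7.39 and 7.45 log2 in control pools. Coq8a, an atypical kinase needed for the same pathway, went the other way with 6.72, 7.08 and 7.25 log2 in treated and 7.30, 7.64 and 7.86 log2 in control pools. Neither gene had overlapping groups, and the changes were 0.66 ± 0.09 and -0.60 ± 0.11 log2.

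Regulators of mitochondrial biogenesis did not show the pattern of the enzymes. Of 8 measured, 1 was higher, Mterf3, a factor of mitochondrial transcription and ribosome assembly (0.26 ± 0.08 log2), and the median was 0.00 log2. Mterf3 did not pass without treated pool 1, 2 or 3 or control pool 1, 2, 3, 5 or 6, with stage as a covariate or with arrays centred on their medians. Ppargc1a, Esrra and Tfam are named here after their values were seen. Ppargc1a, the coactivator best known for inducing mitochondria, differed by -0.03 ± 0.04 log2 (adjusted p = 0.821), but its values of 4.74 to 4.94 log2 are near the lowest on these arrays, 4.16. Esrra, a receptor acting with that coactivator, differed by 0.02 ± 0.06 log2 (adjusted p = 0.917). Tfam, which packages mitochondrial DNA, differed by -0.09 ± 0.08 log2 and did not pass.

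In branched-chain amino acid breakdown 9 of 19 genes rose and 0 fell (median 0.34 log2, and 0.27 log2 among diestrus pools). The number that rose was 6 without both pools of rats 2 and 3. Pcca, a subunit of propionyl-CoA carboxylase at the end of the route, had 9.18, 9.45 and 9.93 log2 in treated and 8.48, 8.69 and 8.82 log2 in control pools. Every treated pool exceeded every control pool, and Pcca rose 1.81-fold (0.86 ± 0.11 log2). Auh of leucine breakdown rose by 0.70 ± 0.10 log2, Aldh6a1 of valine breakdown by 0.53 ± 0.12 log2, and Bckdhb, a subunit of the dehydrogenase that commits the carbon skeletons, by 0.44 ± 0.10 log2. The last of these had overlapping groups.

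In mitochondrial fatty acid oxidation 12 of 19 genes rose and 1 fell (median 0.34 log2). Etfa, an electron transfer flavoprotein subunit, had 9.47, 9.76 and 9.91 log2 in treated and 8.99, 9.06 and 9.36 log2 in control pools and rose by 0.63 ± 0.08 log2. Hadhb, of the trifunctional protein, rose by 0.60 ± 0.09 log2, Decr1, needed for unsaturated fatty acids, by 0.55 ± 0.10 log2 and Echs1, a hydratase, by 0.57 ± 0.10 log2. The gene that fell was Cpt1a, which makes the acylcarnitines that enter mitochondria and is the controlled step. Its values were 8.30, 8.72 and 9.14 log2 in treated and 8.73, 9.51 and 9.96 log2 in control pools. The groups overlapped, the difference was -0.74 ± 0.21 log2 (adjusted p = 0.044), and its other probe set gave -0.46 and also passed. The brighter one did not pass without treated pool 1, 4, 5 or 6 or control pool 2, 4, 5 or 6, without both pools of rats 2 and 3, with arrays centred on their medians or with the trend prior. Cpt1b, the muscle type of the same enzyme, named after its values were seen, rose by 0.50 ± 0.11 log2 without overlap. Ketone body enzymes had 3 of 5 higher, and peroxisomal enzymes and peroxins 6 of 20. The peroxisomal group was led by Phyh, which starts the breakdown of phytanic acid, a branched fatty acid of the diet (0.90 ± 0.14 log2).

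In glucose use, 7 of 16 glycolysis genes rose (43.8%) and 1 fell (6.25%), against 6.03% and 3.9% of all genes. Aldoa, the common aldolase, had 12.47, 12.92 and 13.13 log2 in treated and 12.00, 12.08 and 12.31 log2 in control pools and rose by 0.76 ± 0.10 log2. Aldoc, another aldolase gene, had 8.70, 8.98 and 9.14 log2 in treated and 9.20, 9.57 and 9.83 log2 in control pools and fell by 0.59 ± 0.10 log2. Both separated the groups completely, in opposite directions. Hk2, the insulin-responsive hexokinase, rose by 0.64 ± 0.10 log2 and Tpi1, triosephosphate isomerase, by 0.50 ± 0.08 log2. For glycogen 5 of 15 genes rose (33.3%) and 1 fell (6.67%). Besides Gys2 and Pygl these included Gbe1, the branching enzyme, at 9.52, 10.22 and 10.67 log2 in treated and 8.74, 8.98 and 9.08 log2 in control pools, a 2.36-fold rise. Without both pools of rats 2 and 3 the number of glycogen genes that rose was 3. No glycogen gene fell without treated pool 2, 4, 5 or 6 or control pool 1, 2, 3 or 5. Of the pentose phosphate and NADPH list 4 of 9 rose, with Tkt, transketolase, at 0.77 ± 0.13 log2, Pgd, which makes NADPH, at 0.59 ± 0.11 log2, and Taldo1, transaldolase, at 0.52 ± 0.10 log2.

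Aldo-keto reductases had 4 of 12 higher (33.3%) and 0 lower, against 6.03% and 3.9% of all genes. Akr1b1, which reduces glucose to sorbitol and also handles prostaglandins, had 10.87, 11.21 and 11.49 log2 in treated and 9.98, 10.12 and 10.35 log2 in control pools. Treated pools clearly exceeded control pools, with a 2.07-fold rise (adjusted p = 1.78e-05). Akr1e2, Akr7a2 and Akr1b8 rose by 0.53 ± 0.09, 0.46 ± 0.09 and 0.42 ± 0.11 log2, and Akr1b8 did not pass without treated pool 1 or 3 or control pool 1, 5 or 6. Glutathione transferases had 4 of 18 higher, from Gsta1 at 0.57 ± 0.07 log2 to Mgst1 at 0.32 ± 0.07 log2, but near-identical members of this family can share probes. Of 28 antioxidant enzymes 9 rose (32.1%) and 2 fell (7.14%). Only 5 rose without treated pool 1 or 4 or control pool 6, or without both pools of rats 2 and 3. The mitochondrial members Prdx3 and Txn2 rose by 0.35 ± 0.07 and 0.36 ± 0.07 log2. The falls that passed were in Prdx4, the peroxiredoxin of the secretory pathway (-0.42 ± 0.11 log2), and Gpx3, the secreted glutathione peroxidase (-0.58 ± 0.16 log2). Prdx4 did not pass without treated pool 1, 4 or 5 or control pool 2, 4, 5 or 6, nor Gpx3 without treated pool 3 or 5 or control pool 1, 2, 4 or 5, and neither passed without both pools of rats 2 and 3. V-type ATPase subunits, which acidify organelles, had 4 of 17 higher (23.5%) and 1 lower (5.88%). Those higher were led by Atp6v0e1 at 0.47 ± 0.08 log2.

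Adipocyte genes mostly rose, 11 of 15 with 1 lower, so the metabolic lists above moved together with markers of the fat cell, and the part of cell numbers in those lists was not tested. The mean of the adipocyte list was 10.36 to 11.04 log2 in treated and 9.96 to 10.33 log2 in control pools. Aqp7, which lets glycerol out of fat cells, had 10.15, 10.48 and 11 log2 in treated and 9.31, 9.40 and 9.74 log2 in control pools and rose by 1.10 ± 0.12 log2. Lep, the hormone leptin, rose by 0.86 ± 0.09 log2 and Lpl, lipoprotein lipase, by 0.59 ± 0.09 log2. Cfd, the protease adipsin that fat cells secrete, went the other way, with 12.14, 12.70 and 12.83 log2 in treated and 13.22, 13.28 and 13.56 log2 in control pools. It fell by 0.73 ± 0.10 log2 with no overlap of the groups. Of 9 brown adipocyte genes 1 rose, and Ucp1, the uncoupling protein that defines that cell, had 5.60, 5.76 and 5.94 log2 in treated and 5.80, 5.85 and 5.89 log2 in control pools (difference -0.07 ± 0.06 log2, adjusted p = 0.569).

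Control of lipolysis, the release of stored fat, changed at several levels. Of 24 genes 8 rose (33.3%) and 2 fell (8.33%), against 6.03% and 3.9% of all genes. Among the falls was Plin2 (-0.53 log2), but its dimmer probe set gave 0.828 and also passed, so its direction is uncertain. Mgll, which splits monoglycerides, rose by 1.09 ± 0.16 log2 by its brightest probe set, and 3 other probe sets gave 0.942, 0.917 and 0.085. Prkar2b, the regulatory subunit of protein kinase A typical of fat, had 10.51, 10.74 and 11.23 log2 in treated and 9.77, 9.90 and 10.00 log2 in control pools. The groups were separate and the rise was 0.97 ± 0.10 log2. Ptger3, a prostaglandin E receptor that restrains lipolysis, rose by 0.52 ± 0.08 log2, but its other probe set gave 0.202 and did not pass. Adrb3, the receptor through which catecholamines start lipolysis in rat fat, fell by 0.41 ± 0.10 log2 with overlapping groups. Pnpla2, the first triglyceride lipase, rose by 0.62 ± 0.13 log2 and Lipe, hormone-sensitive lipase, by 0.43 ± 0.12 log2. Lipe did not pass without treated pool 1, 2, 3, 4 or 5 or control pool 1, 3, 4, 5 or 6, nor Adrb3 without control pool 2 or 5.

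A few hormone and matrix genes also stood out. Ghr, the growth hormone receptor, had 9.41, 10.06 and 10.20 log2 in treated and 8.36, 8.78 and 8.95 log2 in control pools and rose 2.34-fold, with 1.217 log2 at its other probe set. S100b, a calcium-binding protein of fat cells and Schwann cells, had 11.56, 11.74 and 12.03 log2 in treated and 10.31, 10.47 and 10.69 log2 in control pools and rose 2.38-fold (adjusted p = 4.77e-06). Both genes separated the groups. Of 14 Schwann cell and nerve genes 1 rose (7.14%) and 2 fell (14.3%), against 6.03% and 3.9% of all genes. S100b was the gene that rose, while Cnp fell by 0.53 ± 0.08 and Sox10 by 0.28 ± 0.05 log2. Cnp and Sox10 were the 2 genes below 0 in that list, the other 12 lay above 0, and its median was 0.03 log2. Nid2, nidogen of the basement membrane, had 10.29, 10.61 and 10.84 log2 in treated and 9.17, 9.38 and 9.66 log2 in control pools and rose by 1.20 ± 0.10 log2 (adjusted p = 9.65e-06). Among 43 collagens and matrix genes 7 rose (16.3%) and 2 fell (4.65%), against 6.03% and 3.9% of all genes. Lox, which cross-links collagen, rose by 0.65 ± 0.13 log2 and Col15a1 and Col4a2, collagens of basement membranes, by 0.52 ± 0.11 and 0.29 ± 0.05 log2, while Fbln2 and Fmod fell by 0.46 ± 0.08 and 0.45 ± 0.10 log2.

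The receptor genes showed no such change. Rxra had 7.29, 7.44 and 7.52 log2 in treated and 7.34, 7.40 and 7.52 log2 in control pools and differed by 0.01 ± 0.05 log2 (adjusted p = 0.934). Rxrb and Rxrg differed by -0.03 ± 0.07 and 0.02 ± 0.06 log2, and for all 3 the ranges of both groups overlapped. Of 19 genes of the receptors and their partners 1 rose (5.26%, against 6.03% of all genes), Pparg, the regulator of fat cell differentiation. Pparg had 8.86, 9.16 and 9.92 log2 in treated and 8.30, 8.38 and 8.83 log2 in control pools, separate from each other, and rose 1.75-fold. Ppara and Ppard, which respond to fatty acids, differed by 0.05 ± 0.06 and 0.04 ± 0.08 log2, and the liver X receptors Nr1h3 and Nr1h2 by -0.12 ± 0.14 and -0.14 ± 0.07 log2. None of these passed, but Ppara was dim, at 5.21 to 5.56 log2 in treated pools.

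Known targets of the pair with liver X receptors showed 1 of 11 higher (9.09%) and 1 lower (9.09%), against 6.03% and 3.9% of all genes. Lpl was the one that rose, and Apoe, an apolipoprotein that carries cholesterol, fell by 0.26 ± 0.08 log2 (adjusted p = 0.047). Apoe did not pass without treated pool 2, 3, 4 or 6 or control pool 1, 2, 3, 4, 5 or 6, without both pools of rats 2 and 3 or with quantile normalization, and its other probe set gave 0.007. Srebf1, a lipogenic transcription factor and a classical target of that pair, differed by -0.16 ± 0.15 log2 (adjusted p = 0.631). Of 18 retinoid genes 2 rose (11.1%) and 1 fell (5.56%). Rbp4, the retinol carrier of blood, which fat also secretes, had 11.52, 11.92 and 12.27 log2 in treated and 10.56, 10.87 and 11.22 log2 in control pools and rose 2.13-fold. Rarres2, which encodes the adipokine chemerin, rose by 0.45 ± 0.06 log2. Rdh10, a retinol dehydrogenase of retinoic acid synthesis, fell by 0.46 ± 0.07 log2 at its brightest probe set, but its other probe set gave 0.008.

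Of 19 luminal epithelium genes 8 fell (42.1%) and 0 rose, against 3.9% and 6.03% of all genes. The list mean was 8.8 to 9.01 log2 in treated and 9.08 to 9.19 log2 in control pools. Epcam, an adhesion protein of all simple epithelia, had 11.19, 11.38 and 11.56 log2 in treated and 11.70, 11.78 and 11.91 log2 in control pools. No treated pool reached a control pool, and Epcam fell by 0.43 ± 0.06 log2, or 1.35-fold. The keratin Krt19 fell by 0.48 ± 0.08 log2, Cldn7 of tight junctions by 0.46 ± 0.09 log2 and Cdh1, E-cadherin, by 0.35 ± 0.08 log2. Esr1 and Pgr, the oestrogen and progesterone receptors of hormone-sensing luminal cells, differed by 0.01 ± 0.06 and 0.17 ± 0.16 log2 and did not pass. None of 18 ovarian hormone and prolactin response genes passed.

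Of 14 basal epithelium genes 5 fell (35.7%) and 1 rose (7.14%), against 3.9% and 6.03% of all genes. The number that fell was 1 or 2 when any of 9 single libraries was left out. These were treated pools 2, 4, 5 and 6 and control pools 1, 2, 3, 5 and 6. Trim29 and Mylk, the kinase that drives contraction, fell by 0.36 ± 0.07 and 0.29 ± 0.08 log2. Tp63, which maintains basal cells, fell by 0.42 ± 0.12 log2 at its brightest probe set, with -0.017 at another. The defining keratins Krt5 and Krt14 differed by -0.35 ± 0.21 and -0.39 ± 0.19 log2 and did not pass. Oxtr, the oxytocin receptor through which basal cells are made to contract, had 8.15, 8.44 and 8.73 log2 in treated and 7.10, 7.47 and 7.81 log2 in control pools. It rose 1.98-fold, against the direction of the other basal genes that passed, and its groups did not overlap. Desmosomal proteins, which bind epithelial cells to each other, had 4 of 6 lower, among them Pkp2 (-0.33 ± 0.06 log2) and Dsc2 (-0.42 ± 0.09 log2), and 2 lower without both pools of rats 2 and 3. Annexins, calcium-dependent membrane proteins, had 3 of 9 lower. These were Anxa8 (-0.65 ± 0.13 log2), Anxa11 (-0.36 ± 0.11 log2) and Anxa4 (-0.34 ± 0.06 log2), and Anxa11 did not pass without treated pool 2, 3, 4, 5 or 6 or control pool 1, 2, 4, 5 or 6.

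Milk genes fell in part. Of 16 genes of milk and secretory differentiation 6 fell (37.5%, against 3.9% of all genes), 0 rose and the median was -0.37 log2. Wap, whey acidic protein, had 8.50, 9.08 and 9.94 log2 in treated and 9.95, 10.23 and 10.98 log2 in control pools. The highest treated pool and the lowest control pool almost touched, and Wap fell 2.33-fold (-1.22 ± 0.21 log2, adjusted p = 0.00249). Lalba, alpha-lactalbumin of lactose synthesis, had 11.50, 12.27 and 12.84 log2 in treated and 12.87, 13.14 and 13.28 log2 in control pools, also close, and fell by 0.87 ± 0.16 log2. Mfge8, a milk fat globule protein, fell by 0.44 ± 0.09 log2 and Cel, a lipase of milk, by 0.29 ± 0.06 log2. The caseins Csn1s1, Csn2 and Csn3 differed by -0.19 ± 0.12, -0.83 ± 0.60 and -0.37 ± 0.12 log2 and did not pass. Csn2 varied most of them, from 6.91 to 11.88 log2 among treated pools and from 9.23 to 11.14 log2 among control pools. Plin2, which coats lipid droplets, is counted among the falls at -0.53 ± 0.13 log2, but a dimmer probe set gave 0.828 and also passed, so its direction is uncertain.

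**Figure D3:**
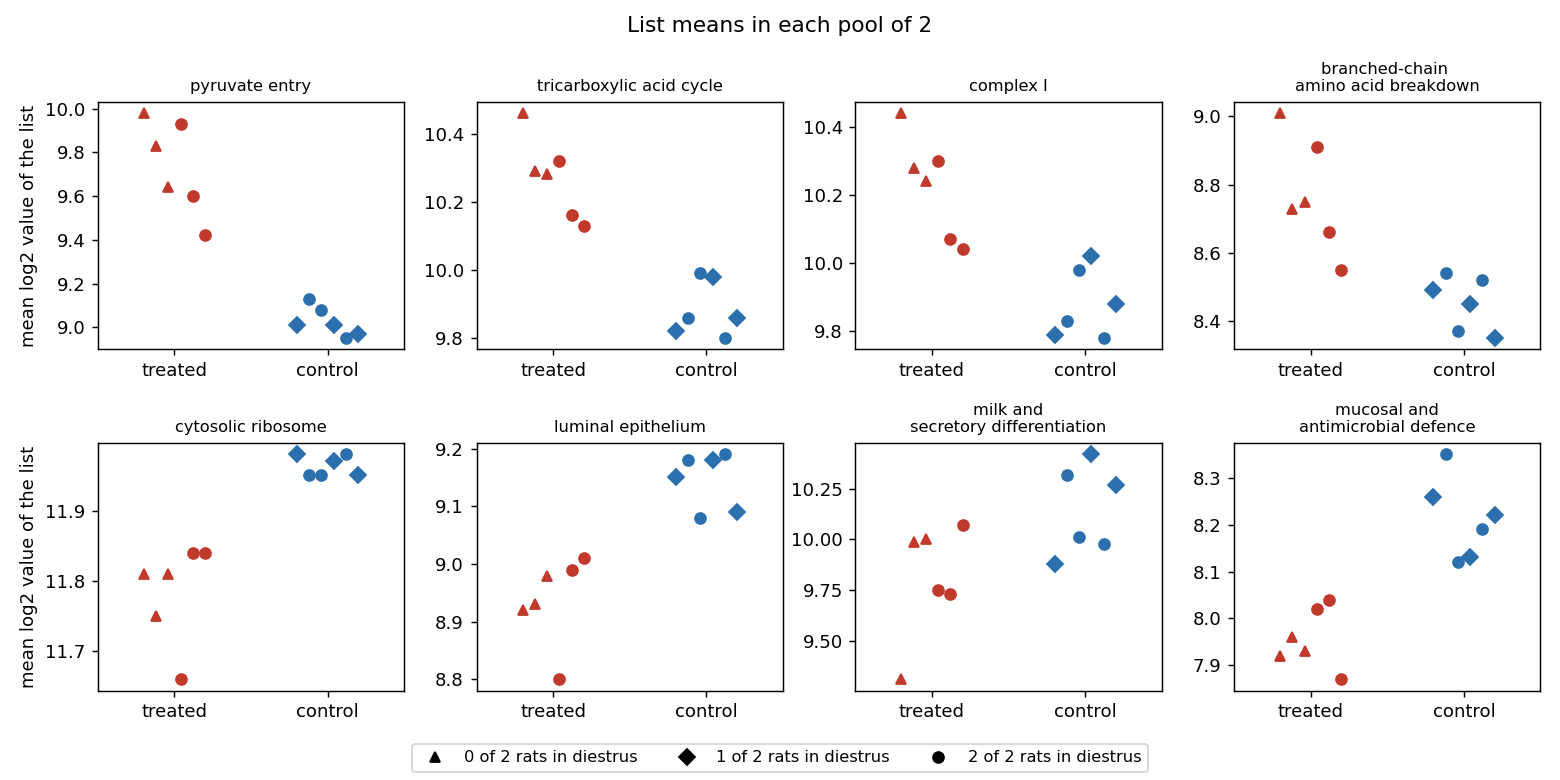
Mean log2 value of each of 8 gene lists in every pool of 2 (treated red, control blue), with the marker showing how many of a pool's 2 rats were in diestrus. Treated and control pools separate in every list but that of milk and secretory differentiation, and each stage symbol of the treated pools lies on the treated side in the separated lists.

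Of 19 genes of mucosal and antimicrobial defence 7 fell (36.8%, against 3.9% of all genes), 0 rose and 12 did not pass (median -0.11 log2). The list mean was 7.87 to 8.04 log2 in treated and 8.12 to 8.35 log2 in control pools. Lcn2, lipocalin 2, which withholds iron from bacteria, had 11.69, 12.06 and 12.25 log2 in treated and 12.64, 12.72 and 12.91 log2 in control pools and fell 1.63-fold. Lbp and Cd14, which pass bacterial lipopolysaccharide to its receptor, fell by 0.59 ± 0.10 and 0.71 ± 0.10 log2. In these 3 genes all treated pools lay below all control pools. Gp2, a receptor for bacteria on mucosal cells, had 7.12, 7.84 and 8.73 log2 in treated and 8.56, 8.90 and 9.31 log2 in control pools, with overlap, and fell by 1.02 ± 0.21 log2. The lectins Reg3b and Reg3a fell by 0.79 ± 0.22 and 0.37 ± 0.08 log2, and Reg3b did not pass without treated pool 1, 2, 3 or 6 or control pool 1, 2, 5 or 6.

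Ion handling of ducts gave 4 of 16 genes lower (25%) and 0 higher, against 3.9% and 6.03% of all genes. Fxyd3, a regulator of the sodium pump in epithelia, had 10.92, 11.12 and 11.15 log2 in treated and 11.47, 11.55 and 11.63 log2 in control pools and fell by 0.48 ± 0.05 log2 (adjusted p = 0.000124). Treated pools were tightly grouped below the control pools. Atp2c2, a calcium pump of the secretory pathway, fell by 0.56 ± 0.12 log2, and Scnn1b, a subunit of the epithelial sodium channel, by 0.44 ± 0.13 log2, both with overlap. Scnn1b did not pass without treated pool 1, 2, 3, 5 or 6 or control pool 1, 2, 3, 5 or 6. In contrast to these genes, none of 36 secretory pathway and glycosylation genes passed.

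Genes for proteins of the cytosolic ribosome fell by small amounts that nearly all pointed one way. Of 44 measured, 26 fell and 0 rose, and 43 of 44 lay below 0, with a median of -0.18 log2. Rps15a, of the small subunit, had 12.09, 12.12 and 12.19 log2 in treated and 12.35, 12.40 and 12.43 log2 in control pools and fell by 0.26 ± 0.04 log2 (adjusted p = 0.000705). Rps9 had 12.55, 12.64 and 12.71 log2 in treated and 12.82, 12.88 and 12.96 log2 in control pools and fell by 0.24 ± 0.04 log2. For both, treated pools lay just below control pools, and for 27 of the 44 genes every treated pool was below every control pool, against 1.93% of all genes. Rpl14 fell by 0.35 ± 0.06 log2 at its brightest probe set, with -0.015 at another. With quantile normalization 11 fell and the median was -0.127. The number was 13 without both pools of rats 2 and 3, 16 without control pool 1 or 5 and 17 without control pool 2 or 6. Ribosomal protein probes can also take up RNA of near-identical copies, so single members are uncertain. In the pools with both rats in diestrus the median of the cytosolic ribosome was -0.18 log2.

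Translation factors followed in part. Of 56 translation initiation and elongation factors 9 fell (16.1%) and 1 rose (1.79%), against 3.9% and 6.03% of all genes. Eif3h of the initiation factor 3 complex had 10.31, 10.46 and 10.52 log2 in treated and 10.64, 10.78 and 10.97 log2 in control pools and fell by 0.35 ± 0.06 log2. Eif4b, which aids the unwinding of messenger RNA, fell by 0.29 ± 0.05 log2 and Eef2, the factor that moves the ribosome along it, by 0.24 ± 0.06 log2. Eef2 did not pass without treated pool 4 or control pool 1, 2 or 5. Eif1a rose by 0.38 ± 0.09 log2, and all its treated pools lay above its control pools.

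**Figure D4:**
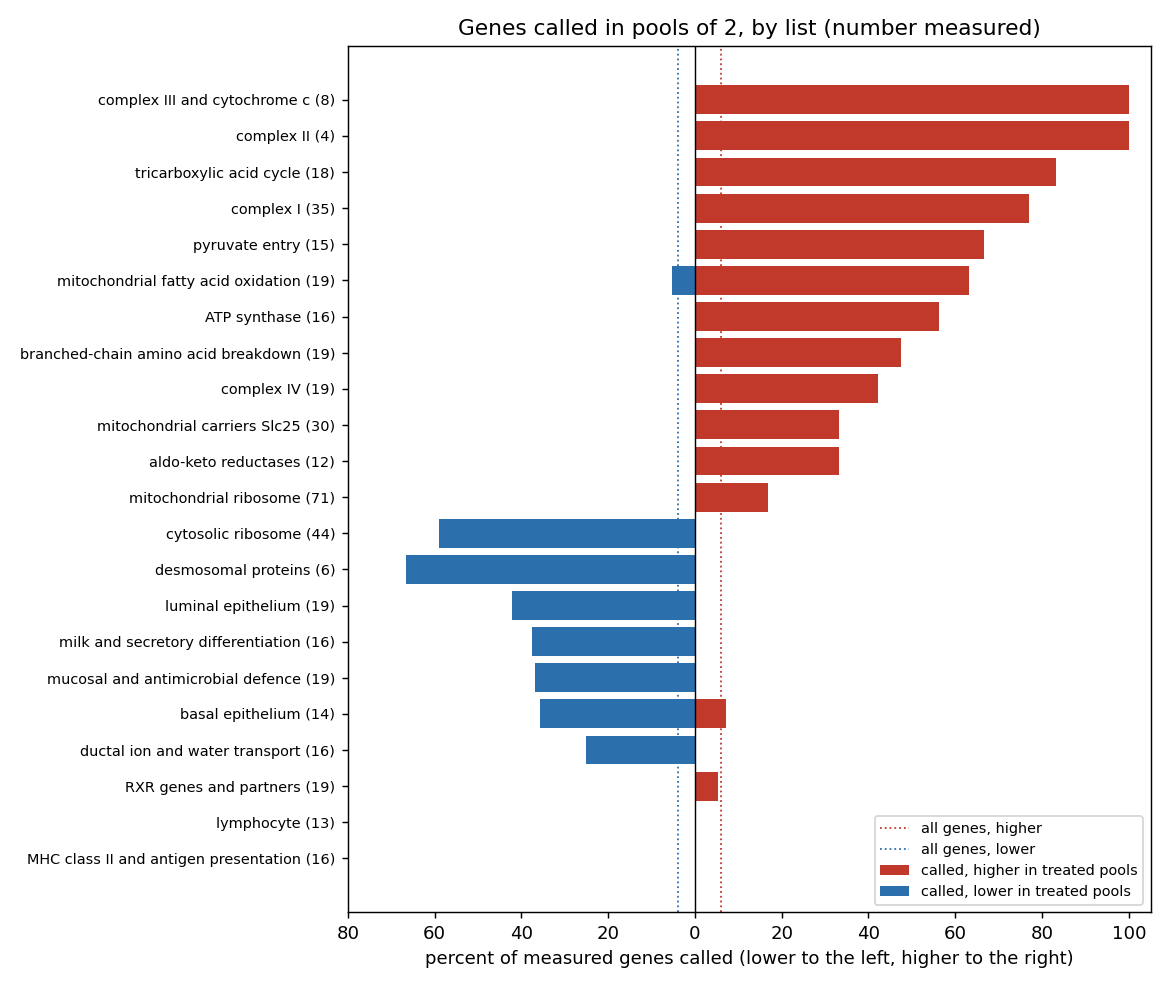
Percent of the measured genes of each list that rose (red, to the right) or fell (blue, to the left) in treated pools of 2, with the number measured in parentheses. Dotted lines mark the same shares over all genes, 6.03% higher and 3.9% lower; lists of fuel oxidation and the respiratory chain lie far to the right, epithelial and cytosolic ribosome lists to the left, and the lymphocyte and MHC class II lists have no bar.

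Markers of other cell types had few calls, at most 2 per list below, although in lists this small that can exceed the shares over all genes. Over all genes 6.03% were higher and 3.9% lower. None of 13 lymphocyte genes passed, with a list mean of 6.1 to 6.31 log2 in treated and 6.1 to 6.28 log2 in control pools, and Ptprc, found on all white blood cells, differed by 0.09 ± 0.07 log2. The list means and the mean of Ptprc, 5.69 log2, lay below the array medians of 7.41 to 7.45 log2, so absent calls say little here. Among 15 macrophage genes 1 rose, Fcer1g at 0.17 ± 0.04 log2, and 1 fell, Cd14 (6.67% each). Fcer1g did not pass without treated pool 1, 2, 4, 5 or 6 or control pool 1, 2, 4 or 6. Csf1r, the receptor that macrophages depend on, differed by 0.18 ± 0.06 log2 and did not pass. Of 12 mast cell genes 2 fell (16.7%). They were the protease Tpsab1 (-0.49 ± 0.11 log2) and Kit, the receptor also present on luminal cells (-0.53 ± 0.14 log2). Kit did not pass without treated pool 1 or 6 or control pool 1, 2 or 5. Of 16 endothelium genes 1 rose and 1 fell (6.25% each). The fall was in Vwf, a clotting protein of vessel walls, at -0.31 ± 0.08 log2. Vwf did not pass without treated pool 5 or control pool 1 or 5. The 7 skin and hair follicle genes had no call but an uneven list mean, 8.91 log2 in treated pool 1 and 7.75 log2 in treated pool 3, against 6.59 to 6.98 log2 in the other treated pools and 6.85 to 7.35 log2 in control pools. The keratin Krt10 of skin had 5.30, 5.34 and 10.31 log2 in treated and 5.17, 5.32 and 7.15 log2 in control pools, so its spread came from single pools in both groups. The part of skin in the results was not tested.

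Many families held no or few changed genes, while 6.03% of all genes were higher and 3.9% lower. None of 39 GABA and glutamate receptors, 32 olfactory and vomeronasal receptors, 43 interleukins and their receptors, 25 minichromosome and replication factors or 15 histones passed. The cell cycle list had 1 higher and 1 lower of 27, both 0 without treated pool 1, 2 or 3 or control pool 1, 2 or 5, and immediate early genes and cytosolic chaperones had none of 21 and 22. Of 20 interferon response genes 1 rose, Irf8 (0.43 ± 0.08 log2), and 1 fell, the membrane protein Plscr1 (-0.57 ± 0.09 log2). Insulin signalling had larger shares than all genes, with 2 of 26 higher (7.69%) and 3 lower (11.5%). Those higher were Slc2a4 and the kinase Akt2 (0.30 ± 0.08 log2). Those lower were Irs2, an adaptor of the insulin receptor (-0.30 ± 0.08 log2), Grb14, which inhibits that receptor (-0.31 ± 0.06 log2), and the transcription factor Foxo3 (-0.28 ± 0.07 log2). Without both pools of rats 2 and 3 only 1 of these 3 was lower and only 1 of the 2 was higher. Akt2 did not pass without treated pool 1, 2 or 4 or control pool 1, 2, 4 or 6 or with stage as a covariate, Irs2 did not pass without treated pool 3 or control pool 1, 2 or 4, and 2 further probe sets each of Akt2 and of Foxo3 did not pass. Of all genes that passed, 588 were in none of the lists and families examined.

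The pools were then set against the mean of their own member rats to ask whether combining labelled targets changed the treatment difference. That difference of differences passed for 0 of 15866 probe sets by limma (0.0%), with 344 below an unadjusted p of 0.05. The median SE of the difference was 0.065 log2, and over the genes called in pools the median size was 0.041 log2. The smallest p values belonged to Plau, a protease that activates plasmin, at 0.23 ± 0.05 log2 (SE), Phka1, a phosphorylase kinase subunit, at 0.25 ± 0.06 log2, Ndufaf8, an assembly factor of complex I, at -0.19 ± 0.06 log2, and Pilra, an inhibitory receptor of myeloid cells, at 0.19 ± 0.06 log2, each with an adjusted p of 1. The arrays compared share their rats, so a small departure is partly built in.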

How the data were processed

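Total RNA of each mammary gland was labelled and hybridised to single-colour rat expression arrays, and pools were made from equal amounts of fragmented targets, per the labels' protocols. The authors deposited 1 value per probe set and array, taken as log2 intensity. The pools' values span 4.16 to 13.97, which exceeds what a natural log of a 16-bit reading allows (11.1) and stays under its log2 limit (16.0). The sources used here name no software, background correction or normalization, and the deposited log2 values entered the fit unchanged.

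Of 15923 probe sets, 57 controls were left out. The 15866 others were tested with limma (lmFit and eBayes), 6 treated against 6 control pools, with Benjamini-Hochberg adjustment over all of them and a threshold of 0.05. Symbols came from the platform annotation, updated through gene IDs to RefSeq genes of GRCr8 (12748 probe sets matched), and 12783 probe sets had 1 symbol, 312 several and 2771 none listed. Each of 10411 genes was represented by the probe set brightest over the 12 pools. Of the 222 genes examined singly 33 had more probe sets, and in 1, Plin2, 2 that passed opposed each other.

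Lists (60, plus 2 added after values were seen) and 77 families by symbol were described by counts and medians beside those of all genes. Most of those described had at least 4 genes called and a share of genes called over 1.5 times that of all genes. Receptor, epithelial, stromal, immune and other cell type lists were given whatever their count. Some others outside that rule are also given, such as mitochondrial biogenesis regulators, ketone body enzymes, brown adipocyte genes and families with few or no calls. The genes named comprise the 12 that rose most and the 12 that fell most outside lipogenesis, up to 8 called members of each described list with the smallest p, defining members that were not called, and the 4 smallest p for pools against members. The pools, lists and members were chosen with earlier results of these data known. Replicates are pools of different rats, so p-values measure the spread between such pools, and the number of arrays limits the precision. The technical axis was taken from arrays repeated on one RNA, and held 57.3% of the variance between them.

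In 5 pairs a treated and a control pool carried the same rat numbers. Their deviations from the group means correlated at 0.16, -0.0866, 0.596, 0.0356 and 0.333, so the numbers were not taken as pairing. Scripts were tested on simulated data. Fits were repeated with the stage or the technical score as a covariate, a block, other normalization, weights, prior, filter and threshold, by ranks, and leaving out each pool. The software was limma 3.58.1 in R 4.3.3, and pandas 2.3.3, numpy 2.4.6 and matplotlib 3.10.9 in Python 3.11.15.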

Additional observations from a re-analysis of the deposited data

Results flagged for a closer look

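In 444 groups of 6 pools, the treated and the control values of each gene examined singly, 20 (4.5%) had 1 pool whose gap to the nearest other, as a share of the group's range, passed Dixon's critical value. Chance flags about 1 in 20 such groups.

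Treated pool 1 was highest for Uqcrh (11.22 log2, the others 10.87 to 11, share 0.629), Pmpcb (8.63, the others 8.21 to 8.36, share 0.643) and Degs1 (10.31, the others 10.0 to 10.11, share 0.645), and lowest for Csn1s1 (12.42, the others 13.07 to 13.35, share 0.699) and Ppara (5.21, the others 5.47 to 5.56, share 0.743). Treated pool 4 was lowest for Tp63 (7.62, the others 8.16 to 8.47, share 0.635) and Krt14 (9.31, the others 10.28 to 10.64, share 0.729) and highest for Scnn1b (9.41, the others 8.84 to 9.02, share 0.684). Both Tp63 and Krt14 are markers of basal epithelium. Treated pool 6 was lowest for Cd14 (10.19, the others 10.48 to 10.60, share 0.707), Gpx3 (10.53, the others 11.12 to 11.37, share 0.702) and Ghr (9.41, the others 9.91 to 10.20, share 0.633).

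Control pool 3 was highest for Pygl (9.25, the others 8.92 to 9.03, share 0.667) and Aldoa (12.31, the others 12.00 to 12.11, share 0.645), which rose in treated pools, and lowest for Hibch (7.98, the others 8.19 to 8.28, share 0.7) and Akr1e2 (8.98, the others 9.22 to 9.36, share 0.632). Control pool 4 was highest for Ndufs3 (9.73, the others 9.44 to 9.52, share 0.724) and Mterf3 (8.67, the others 8.27 to 8.39, share 0.7). Control pool 5 was highest for the skin keratin Krt10 (7.15, the others 5.17 to 5.43, share 0.869) and the macrophage receptor Csf1r (8.63, the others 8.43 to 8.49, share 0.7). Control pool 6 was lowest for Atp6v0e1 (10.52, the others 10.64 to 10.68, share 0.75).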

How the results depend on the processing

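Of the 222 genes examined singly 199 passed, and none of these changed direction under any of 25 other settings. Those settings refit all or part of the same 12 pools, which favours that outcome. The stricter threshold and the rank-sum test reused the differences reported, so direction could not change there. In every setting other than the comparison of 3 against 3 diestrus pools 132 of the 199 passed. In that comparison 197 of the 199 did not pass. A threshold of 0.01 left 591 probe sets and 451 genes, with 419 probe sets higher and 172 lower. Among the diestrus pools 11 passed, 4 higher and 7 lower, and 6 genes, with 2597 probe sets at an unadjusted p under 0.05, against 3301 in all pools. The exact rank-sum test gave 741, 458 higher and 283 lower, and 544 genes. Array weights gave 887 lower. Without single pools, total calls ran from 956 to 1559, higher calls from 617 to 901, lower calls from 337 to 708 and genes from 719 to 1154. Of the 199 genes 169 passed without each of the 12 single pools, 12 did not in 1 to 5 of those fits and 18 did not in 6 or more. The fewest lower calls were 337 without control pool 2 and 339 without control pool 5. The other settings kept all 4 counts within 1.5 times the values reported.

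The block by replicate number (10 pools sharing rat numbers) gave 1880 calls, 1043 higher and 837 lower, against 1303 in the same 10 pools without the block, a comparison added after the data were seen. Of these 10 pools, 4 correlated best with the pool of their own number in the other group, those of rats 2 and 3 and of rats 8 and 9. The others did not, so pairing is not established. The small number of pools limits the precision, and the causes of these shifts were not tested. The difference between pools and their member rats had 0 calls in every setting run.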

Other observations

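Transport and membrane lipids held further changes. Of 228 solute carriers 28 rose (12.3%) and 8 fell (3.51%), against 6.03% and 3.9% of all genes, so the share that fell was not above that of all genes. Slc48a1, which exports heme from lysosomes, had 9.11, 9.46 and 9.76 log2 in treated and 8.30, 8.55 and 8.79 log2 in control pools, without overlap, and rose by 0.89 ± 0.11 log2. The fructose transporter Slc2a5 rose by 0.48 ± 0.06 log2, the inositol transporter Slc2a13 by 0.52 ± 0.07 log2, and Slc37a4, which takes glucose 6-phosphate into the endoplasmic reticulum, by 0.47 ± 0.07 log2. The number of solute carriers that fell was 1 without both pools of rats 2 and 3, and 2 to 5 when any of treated pools 1, 4, 5 and 6 or control pools 1, 2, 4 and 5 was left out.

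Of 20 genes of phospholipid and sphingolipid synthesis 5 rose and 0 fell. Chpt1, which makes phosphatidylcholine, had 8.47, 9.06 and 9.53 log2 in treated and 7.95, 8.14 and 8.27 log2 in control pools and rose by 0.92 ± 0.14 log2. Degs1, a desaturase of ceramide synthesis, and Ptdss2, which makes phosphatidylserine, rose by 0.35 ± 0.06 and 0.27 ± 0.06 log2. In these 3 genes the groups did not overlap. The number that rose was 3 without both pools of rats 2 and 3, and without any single pool other than treated pools 3, 5 and 6 and control pool 3. In xenobiotic metabolism 5 of 32 rose and 1, Cyp2e1, fell, and 3 rose without treated pool 4, without control pool 2, 4 or 6, or without both pools of rats 2 and 3. Beside glutathione transferases these were Aldh3a2, which oxidises fatty aldehydes (0.28 ± 0.07 log2), and the carboxylesterase Ces1d (0.42 ± 0.12 log2). Aldh3a2 did not pass without treated pool 4 or control pool 1, 2, 4 or 6, nor Ces1d without treated pool 1, 2, 3, 4 or 5 or control pool 2, 3, 4, 5 or 6.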
